A study of Mus musculus with 10 samples.

Results

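Fibronectin and the matricellular proteins were followed in mouse peritoneum as a list of 10 genes, Fn1, Postn, Sparc, Tnc, Thbs1, Thbs2, Ccn1, Ccn2, Fbln1 and Fbln2, out of 21877 gene symbols in the read counts. All 10 were found by symbol and all 10 passed the filter on low counts, which left 15385 genes to test. The peritoneum of male C57BL/6 mice was sampled in 4 groups: Mr1-/- mice given 4.25% peritoneal dialysis (PD) fluid (2 libraries), Mr1-/- mice given PBS (2 libraries), Mr1+/+ mice given 4.25% PD fluid (3 libraries) and Mr1+/+ mice given PBS (3 libraries). Both liquids were injected into the peritoneal cavity over 6 weeks in equal volume, and PD fluid is the glucose-rich solution used for peritoneal dialysis in patients. Mr1 encodes the antigen-presenting molecule recognised by mucosal-associated invariant T cells. The labels give neither the age of the mice nor the Mr1 allele, and nothing links a library to an animal. The p-values therefore cover only how these samples vary, and that variation may be technical.

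Fibronectin is a large glycoprotein that cells assemble into fibrils, on which other matrix proteins are laid down and to which integrins bind. Matricellular proteins are secreted into the matrix but serve mainly to regulate cells, collagen assembly and growth factors, and many of them are made when tissue is injured or remodelled. In the peritoneum, fibroblasts and mesothelial cells make these proteins, and the layer under the mesothelium is known to thicken with matrix during long-term dialysis.

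Library totals ran from 14145635 to 16335799 counts. Mr1 itself had 29 to 39 counts in Mr1-/- and 324 to 524 counts in Mr1+/+ libraries, as labelled. A chi-square per gene, which is 1 for Poisson counting noise alone, was 1.74 between replicates 1 and 2 of Mr1-/- PD fluid and 2.23 between replicates 1 and 2 of Mr1+/+ PBS. The other 6 pairs of libraries within groups gave 18.6 to 118. Each of these near-identical pairs was summed and counted as 1 sample, so n was 1 for Mr1-/- PD fluid, 2 for Mr1-/- PBS, 3 for Mr1+/+ PD fluid and 2 for Mr1+/+ PBS. Tests on the single Mr1-/- PD fluid sample borrow their spread from the other groups. Levels are CPM, counts scaled to a common library size by TMM, and "rose" or "fell" is used where edgeR's quasi-likelihood F test gave a Benjamini-Hochberg adjusted p under 0.05 over all genes tested.

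In Mr1+/+ mice, 5 of the 10 genes rose under PD fluid and none fell. They were Sparc, Ccn1, Ccn2, Fbln1 and Fbln2, with fold changes of 2.10 to 3.33. Over all genes tested the same comparison called 14.9% in either direction, 8.49% as higher and 6.37% as lower. The median log2 fold change of the 10 genes was 1.04, against -0.06 over all genes, and 8 of the 10 were positive against 46.1% of all genes. No level separated the groups completely for Fn1 and Thbs2, whereas 7 genes were higher in every Mr1+/+ PD fluid library than in every Mr1+/+ PBS library, and 1 was lower in every one. Such complete separation was seen upward in 23.3% and downward in 23.3% of all genes. An unadjusted p under 0.05 was reached by 7 of the 10 genes and by 34.1% of all genes.

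**Figure D1:**
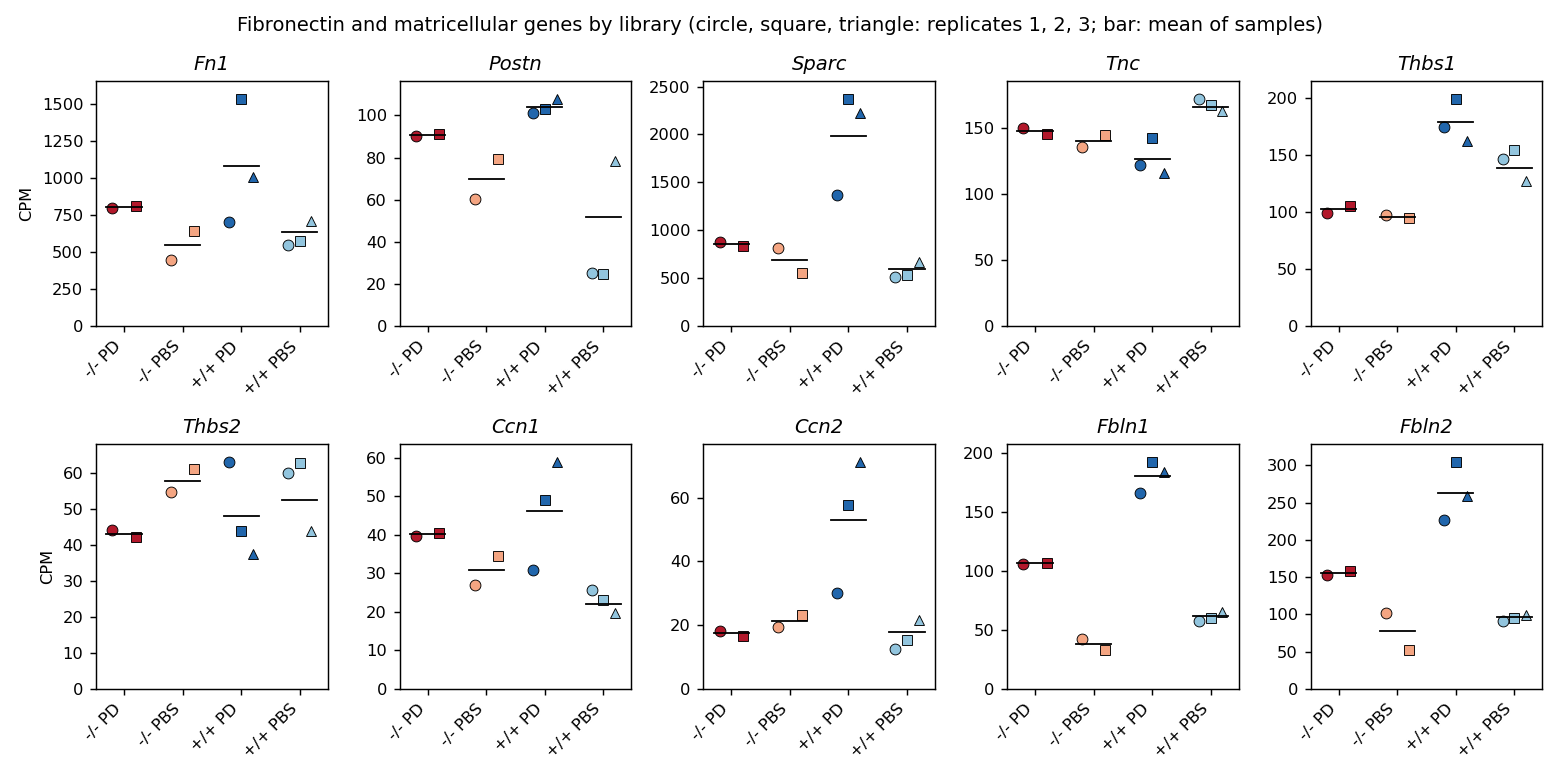
CPM of each gene (vertical axes, from 0) in the 10 libraries by group, with Mr1-/- written as -/-, Mr1+/+ as +/+ and PD fluid as PD; circles, squares and triangles are replicates 1, 2 and 3, and the bar is the mean of the samples. Fbln1 in Mr1+/+ PD fluid libraries sits between 166 and 192 CPM, above every Mr1+/+ PBS library (57.6 to 65.4 CPM), and Ccn2 in Mr1-/- PD fluid libraries sits at or under 18.3 CPM.

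The stretches before a RefSeq transcription start of 4 of the 5 genes that rose are shown first, because they let the letters for known transcription factor motifs be read beside the measured changes. They come from RefSeq (build GRCm38.p6), which matched 7 of the 10 genes; Fn1, Thbs1 and Ccn2 had no entry. Each run holds the 250 bases before the start, 5′ to 3′ on the gene's own strand. Capitals mark matches to CAGAC (bound by SMAD proteins), GGAATG (bound by TEAD proteins), TATAAA (the TATA box) and GGGCGG (the GC box), on either strand. The runs lie at chr15:85205699-85205948 (plus strand) for Fbln1, chr6:91212514-91212763 (plus strand) for Fbln2, chr11:55420081-55420330 (minus strand) for Sparc and chr3:145649986-145650235 (minus strand) for Ccn1. By the GENCODE gene bounds used for the coordinates of the genes, the Sparc and Fbln2 runs lie inside the annotated gene, before a start internal to it.
Fbln1: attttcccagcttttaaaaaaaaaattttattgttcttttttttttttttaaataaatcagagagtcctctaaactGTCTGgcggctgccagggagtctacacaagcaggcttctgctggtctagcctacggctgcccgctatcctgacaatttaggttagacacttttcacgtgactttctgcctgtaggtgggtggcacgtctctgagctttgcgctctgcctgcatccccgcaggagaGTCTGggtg
Fbln2: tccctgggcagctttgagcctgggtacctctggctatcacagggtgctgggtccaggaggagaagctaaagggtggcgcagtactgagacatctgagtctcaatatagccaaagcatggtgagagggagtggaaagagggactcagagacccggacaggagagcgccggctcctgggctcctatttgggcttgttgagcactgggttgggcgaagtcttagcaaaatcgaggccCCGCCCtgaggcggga
Sparc: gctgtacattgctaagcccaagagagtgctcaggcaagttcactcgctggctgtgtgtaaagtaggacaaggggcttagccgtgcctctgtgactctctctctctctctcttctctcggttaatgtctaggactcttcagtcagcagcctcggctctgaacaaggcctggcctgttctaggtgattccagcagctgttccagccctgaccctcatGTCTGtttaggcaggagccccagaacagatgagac
Ccn1: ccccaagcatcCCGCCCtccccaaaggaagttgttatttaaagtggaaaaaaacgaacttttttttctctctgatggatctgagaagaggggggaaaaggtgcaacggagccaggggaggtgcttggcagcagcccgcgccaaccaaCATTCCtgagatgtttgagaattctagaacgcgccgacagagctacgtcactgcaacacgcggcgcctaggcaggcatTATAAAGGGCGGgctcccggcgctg

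Ccn1 held the letters of the TEAD motif once, on the reverse strand 103 bases before the start, and those of the TATA box 25 bases before it. It also held GC boxes at 239 bases (reverse) and at 19 bases (forward), the second directly after the TATA box and not overlapping it. Fbln1 held CAGAC at 174 and 9 bases, and Sparc once at 35 bases, all on the reverse strand. Fbln1 has a second RefSeq start, whose run (chr15:85205758-85206007) overlaps the first and is not printed. Before it stood CAGAC at 233 and 68 bases and a GC box at 11 bases, all on the reverse strand. Fbln2 held a single GC box, on the reverse strand at 16 bases. Of 32536 promoters of the same length, GGAATG stood in 12.6%, CAGAC in 42.2%, TATAAA in 12.3% and GGGCGG in 33.0%. Of the 7 genes with an entry, GGAATG stood before any start in 1, CAGAC in 5, TATAAA in 4 and GGGCGG in 4. Postn, Tnc and Thbs2, which did not rise, each held both CAGAC and TATAAA, so these letters were not particular to the genes that rose. A search for TGANTCA (AP-1), which stood in 6.73% of promoters, and for the CArG box of serum response factor, in 1.48%, found no match in the 7 genes with an entry. A match describes the letters and does not show that a factor binds.

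The fibulins are elastic-fibre and basement-membrane glycoproteins that bind fibronectin; in Mr1+/+ mice their levels varied little within groups. Fbln1 (ENSMUSG00000006369.14; mm10 chromosome 15, bases 85205949 to 85286535, plus strand) had 166, 192 and 184 CPM in the Mr1+/+ PD fluid libraries, against 57.6, 60.2 and 65.4 CPM in the Mr1+/+ PBS libraries. The groups lay far apart, with little spread inside either. Fbln1 rose by 1.54 on the log2 scale (SE 0.16, 2.91-fold, edgeR adjusted p = 0.0124), and its unadjusted p was number 3 from the smallest of all genes. Fbln2 (ENSMUSG00000064080.12; chromosome 6, 91212455 to 91272540, plus strand) had 226, 305 and 259 CPM under PD fluid, against 91.6, 95.2 and 98.8 CPM under PBS. Every PD fluid library again lay above every PBS library. Fbln2 rose by 1.45 (SE 0.28, 2.74-fold, edgeR adjusted p = 0.0205). The count ratio of Fbln2 to Fbln1 was 1.36 to 1.58 under PD fluid and 1.51 to 1.59 under PBS, so the pair kept about the same proportion.

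Sparc, a collagen-binding glycoprotein that guides collagen fibril assembly, had the largest fold change of the 10 in Mr1+/+ mice. The gene (ENSMUSG00000018593.13; chromosome 11, 55394500 to 55423183, minus strand) had 1364, 2368 and 2226 CPM in the Mr1+/+ PD fluid libraries, against 511, 533 and 672 CPM in the Mr1+/+ PBS libraries. All 3 PD fluid libraries were higher, replicate 1 least so. Sparc rose by 1.73 (SE 0.30, 3.33-fold, edgeR adjusted p = 0.0147).

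Ccn1 and Ccn2, formerly Cyr61 and Ctgf, are integrin-binding proteins best known as targets of the YAP and TAZ co-activators, and Ccn2 also as a target of TGF-beta in fibrosis. Ccn2 (ENSMUSG00000019997.11; chromosome 10, 24595442 to 24598683, plus strand) had 30.1, 57.6 and 71.3 CPM in the Mr1+/+ PD fluid libraries, against 12.6, 15.4 and 21.5 CPM in the Mr1+/+ PBS libraries. The groups did not overlap, and PD fluid replicate 1 lay nearest to the PBS libraries. Ccn2 rose by 1.58 (SE 0.38, edgeR adjusted p = 0.0369). Ccn1 (ENSMUSG00000028195.4; chromosome 3, 145646976 to 145649981, minus strand) had 30.8, 49.1 and 58.9 CPM under PD fluid, against 25.6, 23.1 and 19.6 CPM under PBS. The groups lay apart by a narrower margin, with PD fluid replicate 1 again nearest to PBS. Ccn1 rose by 1.07 (SE 0.28, 2.10-fold, edgeR adjusted p = 0.0411). Per library, the count ratio of Ccn2 to Ccn1 was 0.976, 1.17 and 1.21 under PD fluid and 0.493, 0.667 and 1.10 under PBS.

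Fibronectin itself did not pass the test. Fn1 (ENSMUSG00000026193.15; chromosome 1, 71585520 to 71653200, minus strand) had 702, 1536 and 1011 CPM in the Mr1+/+ PD fluid libraries, against 549.6, 573 and 711 CPM in the Mr1+/+ PBS libraries. Replicate 1 of PD fluid lay under replicate 3 of PBS, and the other two PD fluid libraries lay above all PBS libraries. The log2 fold change was 0.77 (SE 0.34, 95% interval -0.02 to 1.55, edgeR adjusted p = 0.155). DESeq2 on the 8 samples did call Fn1 (0.76, SE 0.29), as did edgeR on the 10 separate libraries (0.83, SE 0.26).

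Periostin, encoded by Postn, binds collagen and promotes its cross-linking, and its result depended on 1 control library and on the method. With every library kept, DESeq2 on the 8 samples called Postn for PD fluid in Mr1+/+ mice (1.01, SE 0.36). So did edgeR on the 10 separate libraries (1.285, SE 0.42), while edgeR on the 8 samples did not. Postn (ENSMUSG00000027750.16; chromosome 3, 54361109 to 54391037, plus strand) had 101, 103 and 108 CPM under PD fluid, against 25.4, 24.6 and 78.3 CPM under PBS in Mr1+/+ mice. Replicate 3 of Mr1+/+ PBS stood well above the near-identical other two but still under every PD fluid library. The log2 fold change was 1.02 (SE 0.46, edgeR adjusted p = 0.174). Without that replicate it was 2.06 with an edgeR adjusted p of 0.00756, and without Mr1+/+ PBS replicates 1 and 2 it was 0.43 (edgeR adjusted p = 0.204), the ends of its range over the libraries left out. Without replicate 3, the number of the 10 genes called was again 5 (18.2% of all genes), since Ccn1 (0.93, adjusted p = 0.107) then missed the threshold. The same library had 2211 summed CPM of 8 intestinal epithelial markers, against 24.4 to 35.8 CPM in the other 9 libraries, and 25590 summed CPM of 8 pancreatic acinar markers, against 137 to 5260 CPM in the others. Its sum of 11 mesothelial markers, 1095 CPM, was the highest, but 584 CPM of it was Krt8, 341 CPM Krt19 and 66.3 CPM Krt18, keratins of many epithelia. Msln (10.5 CPM), Upk3b (36.0 CPM), Wt1, Lrrn4, Upk1b and Bnc1 were lower in it than in Mr1+/+ PBS replicates 1 and 2. Gpm6a was about level (21.4 CPM, against 25.5 and 22.0 CPM), and Muc16 was higher (9.41 CPM, against 6.38 and 7.02 CPM). The part of these transcripts in the Postn value was not tested.

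The thrombospondins, which bind integrins, CD36 and CD47 and inhibit angiogenesis, did not pass the test. Thbs1, which also activates latent TGF-beta (ENSMUSG00000040152.8; chromosome 2, 118111876 to 118127133, plus strand), had 174, 199 and 162 CPM under PD fluid, against 146, 154 and 127 CPM under PBS in Mr1+/+ mice. The PD fluid libraries were higher without overlap, by a small step. Its log2 fold change was 0.36 (SE 0.15, edgeR adjusted p = 0.125). Thbs2 (ENSMUSG00000023885.9; chromosome 17, 14665500 to 14694235, minus strand) had 63.0, 43.7 and 37.5 CPM under PD fluid, against 60.0, 62.8 and 43.7 CPM under PBS. Its groups overlapped, and the log2 fold change was -0.13 (SE 0.24, 95% interval -0.69 to 0.43, edgeR adjusted p = 0.729).

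Tenascin-C, encoded by Tnc, is a large glycoprotein of wounds and developing tissue that counteracts adhesion to fibronectin. Tnc (ENSMUSG00000028364.15; chromosome 4, 63959785 to 64047015, minus strand) was the gene whose Mr1+/+ PD fluid libraries were all lower, at 122, 142 and 116 CPM, against 172, 167 and 163 CPM in the Mr1+/+ PBS libraries. The log2 fold change was -0.39 (SE 0.14, 95% interval -0.71 to -0.07, edgeR adjusted p = 0.0893), so it missed the threshold. DESeq2 on the 8 samples did call Tnc as lower (-0.40, SE 0.15), as did edgeR on the 10 separate libraries (-0.40, SE 0.099). Annotated genes on the opposite strand overlap exons of Fn1, Tnc, Thbs1 and Ccn2 over 292, 176, 208 and 665 bases in that order, and since no step that marks the strand is named, reads there cannot be told apart.

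Leaving out Mr1+/+ PD fluid replicate 2 or 3 removed most or all of the 5 calls. Replicate 1 was the lowest of the 3 for all 5 genes and for Fn1, and it had the lowest adipocyte sum of the 3 (17930 CPM) and 137 CPM of 8 pancreatic acinar markers, against 3167 and 3711 CPM in the other two. Without replicate 2, Fbln1 alone was called (adjusted p = 0.0492, edgeR), and without replicate 3 none of the 10 were, with Fbln1 lowest at an edgeR adjusted p of 0.0576. Over all genes tested, 14.0% were called without replicate 1, 2.21% without replicate 2 and 0% without replicate 3. Without the merged Mr1+/+ PBS replicates 1 and 2, Sparc and Fbln1 were called, and 9.93% of all genes. With the 10 libraries kept apart, edgeR called 9 of the 10 genes (8 as higher and Tnc as lower) and 37.5% of all genes, or 37.4% with the replicate number as a block. DESeq2 on the 8 samples called 8 of the 10 and 24.6% of all genes. Beyond the 5 genes above, DESeq2 called Fn1 and Postn as higher and Tnc as lower. Ccn2 also missed the threshold in the fit on the groups compared alone (edgeR adjusted p = 0.0527) and without Mr1-/- PBS replicate 1 (0.0635) or 2 (0.0633), settings that keep every Mr1+/+ library. The fold changes moved less than the calls: over every set of libraries left out, Fbln1 ran from 1.48 to 1.62, Fbln2 from 1.35 to 1.55, Sparc from 1.58 to 1.94, Ccn2 from 1.30 to 1.92 and Ccn1 from 0.85 to 1.30.

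Markers of several cell types were also higher in the Mr1+/+ PD fluid libraries. The sum of 12 adipocyte markers was 17930 to 26930 CPM under PD fluid and 6151 to 7560 CPM under PBS, and 11 of its 12 genes rose. The sum of 12 fibroblast markers was 8285 to 8742 CPM under PD fluid and 2873 to 3455 CPM under PBS, with 9 of 12 rising. Most of that sum was Gsn, at 5843 to 6134 CPM under PD fluid and 1852 to 2363 CPM under PBS. Dpp4 (47.2 to 90.3 CPM, against 77.4 to 97.9 CPM) and Ly6a overlapped between the groups. Of 9 blood endothelial markers 6 rose (1781 to 2223 CPM under PD fluid, 1132 to 1222 CPM under PBS), and of 10 macrophage markers 5 rose (2934 to 4019 CPM, against 2302 to 2528 CPM). Of 10 mural markers 1 rose. Of 11 mesothelial markers none did, with sums of 202 to 519.6 CPM under PD fluid and 200.4 to 1095 CPM under PBS. Their log2 fold changes had a median of 0.80, and 7 of the 11 were positive. All 8 B cell markers fell, with sums of 1121 to 1251 CPM under PD fluid and 2008 to 3208 CPM under PBS. Platelets carry Sparc and Thbs1, and of 8 platelet and megakaryocyte markers 5 were tested and 1 rose, with sums of 73.8 to 77.1 CPM under PD fluid and 39.0 to 51.5 CPM under PBS and Gp1bb at 0 in all 10 libraries. No adipocyte, fibroblast or mesothelial marker was at 0 in any library. In bulk tissue, more cells of a type and more RNA per cell cannot be told apart, and the part of these cell types in the changes of the 10 genes was not tested. With the mean level of the adipocyte markers as a covariate, none of the 10 genes was called, and 0.344% of all genes were. The adipocyte sums of the Mr1+/+ groups did not overlap, so this fit cannot separate PD fluid from adipocyte level. With the covariate the SE was 0.75 for Sparc (0.30 without it), 1.04 for Ccn1 (0.28) and 1.25 for Ccn2 (0.38).

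**Figure D2:**
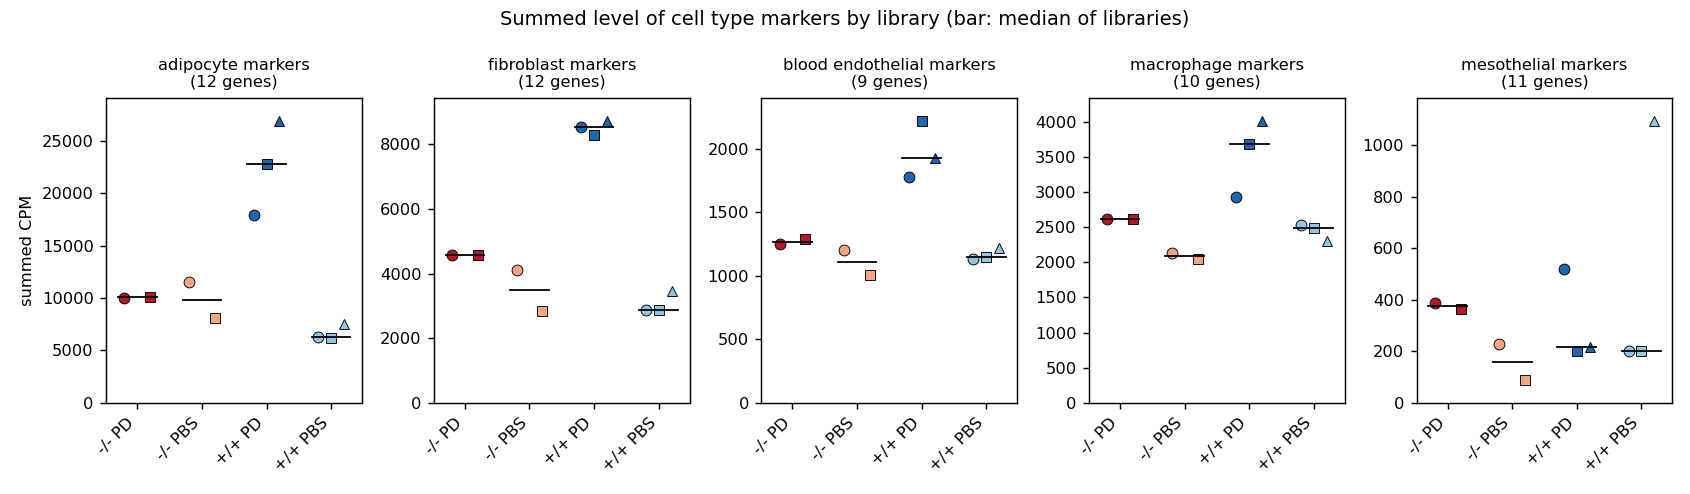
Summed CPM of the marker genes of 5 cell types (vertical axes, from 0) in each library by group, with symbols as in the plot of the 10 genes and bars at the median of libraries. Adipocyte markers (17930 to 26930 CPM) and fibroblast markers (8285 to 8742 CPM) are highest in the 3 Mr1+/+ PD fluid libraries, and the mesothelial sum is highest in Mr1+/+ PBS replicate 3 (1095 CPM), where the keratins Krt8 (584 CPM) and Krt19 (341 CPM) make up most of it.

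Set against the fibroblast sum of the same library, 0 of the 10 genes were higher in every Mr1+/+ PD fluid library than in every Mr1+/+ PBS library, 4 were lower in every one and 6 overlapped. Per 1000 CPM of fibroblast markers, Fbln1 had 19.4, 23.2 and 21.0 CPM in Mr1+/+ PD fluid libraries and 19.9, 21.0 and 18.9 CPM in Mr1+/+ PBS libraries, so the groups overlapped. Fbln2 had 26.5, 36.8 and 29.6 CPM under PD fluid and 31.7, 33.1 and 28.6 CPM under PBS, also overlapping. Sparc had 159.7, 286 and 255 CPM under PD fluid and 177, 186 and 195 CPM under PBS, with replicates 2 and 3 of PD fluid above and replicate 1 below. The other overlapping genes were Ccn1, Ccn2 and Postn. Those that were lower were Tnc (13.3 to 17.1 CPM under PD fluid, 47.0 to 59.4 CPM under PBS), Fn1 (82.2 to 185 CPM, against 190.3 to 206 CPM), Thbs1 (18.6 to 24.0 CPM, against 36.8 to 53.5 CPM) and Thbs2 (4.29 to 7.37 CPM, against 12.6 to 21.8 CPM). Gsn made up most of the fibroblast sum in both Mr1+/+ groups, so these are largely ratios to Gsn and do not measure fibroblast content. Because the sum was higher in every Mr1+/+ PD fluid library, a gene of unchanged level lies lower on this scale. Set against the adipocyte sum instead, 0 of the 10 genes were completely higher, 5 were completely lower and 5 overlapped. The share of all genes lying lower was not computed on either scale. These ratios were computed after the levels were seen and carry no test.

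In Mr1-/- mice, none of the 10 genes was called for PD fluid by edgeR's test. No gene of all 15385 was called, so the share called was 0%; 231 (1.50%) had an unadjusted p under 0.05, among them 2 of the 10. DESeq2 called 1 of the 10, Fbln1, and 0.0195% of all genes. The median log2 fold change of the 10 was 0.35, against -0.02 over all genes. In 8 of the 10 every Mr1-/- PD fluid library lay above, and in 2 below, every Mr1-/- PBS library, where 21.4% of all genes lay completely above and 20.1% completely below. The near-identical PD fluid libraries make this separation easy to reach.

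Fbln1 had the largest fold change of the 10 in Mr1-/- mice. It had 106 and 107 CPM in the Mr1-/- PD fluid libraries, against 42.5 and 33.2 CPM in the Mr1-/- PBS libraries. Both PD fluid libraries were far above both PBS libraries. The log2 fold change was 1.49 (SE 0.20, 95% interval 1.04 to 1.95, 2.82-fold), and its edgeR adjusted p was 0.433 although its unadjusted p was number 2 from the smallest. With the 10 libraries kept apart, edgeR gave Fbln1 an adjusted p of 0.0131, and DESeq2 on the 8 samples gave 2.96e-06. Fbln2 had 153 and 158 CPM under PD fluid, against 102 and 52.0 CPM under PBS, also without overlap. Its log2 fold change was 1.01 (SE 0.35, 95% interval 0.20 to 1.83, edgeR adjusted p = 1).

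Sparc, Ccn1 and Ccn2 were not called in Mr1-/- mice. Sparc had 875 and 834 CPM in the Mr1-/- PD fluid libraries, against 813 and 556 CPM in the Mr1-/- PBS libraries, a log2 fold change of 0.32 (SE 0.37, 95% interval -0.53 to 1.17). Ccn2 had 18.3 and 16.6 CPM under PD fluid, against 19.5 and 23.1 CPM under PBS, a log2 fold change of -0.29 (SE 0.49, 95% interval -1.45 to 0.87). Both of its PD fluid libraries were the lower ones, the opposite order to Mr1+/+ mice. Ccn1 had 39.6 and 40.5 CPM under PD fluid, against 26.9 and 34.6 CPM under PBS, a log2 fold change of 0.38 (SE 0.36, 95% interval -0.45 to 1.21). The groups of Ccn1 lay close together without overlapping. The count ratio of Ccn2 to Ccn1 was 0.461 and 0.410 under PD fluid and 0.727 and 0.669 under PBS.

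The remaining genes had log2 fold changes with intervals that spanned 0 in Mr1-/- mice. Fn1 had 802 and 813 CPM under PD fluid and 447 and 644 CPM under PBS (0.56, SE 0.43). Postn had 90.4 and 90.9 CPM under PD fluid and 60.3 and 79.1 CPM under PBS (0.38, SE 0.58). Both genes were higher in the PD fluid libraries without overlap, with SEs as large as or close to the differences. Thbs1 had 99.4 and 105 CPM under PD fluid and 97.1 and 94.2 CPM under PBS (0.09, SE 0.20), and Tnc 149.6 and 146 CPM against 135 and 145 CPM (0.08, SE 0.19). Thbs2 had 44.1 and 42.1 CPM under PD fluid and 54.6 and 60.9 CPM under PBS (-0.42, SE 0.33). Thbs2 and Ccn2 were the pair of genes with lower PD fluid libraries.

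No marker of the adipocyte, fibroblast or mesothelial lists was called in Mr1-/- mice. All 11 mesothelial markers had positive log2 fold changes, with a median of 1.02 and sums of 362.5 to 388 CPM under PD fluid and 88.4 to 229 CPM under PBS, which did not overlap. Adipocyte markers summed to 10030 to 10120 CPM under PD fluid and 8110 to 11560 CPM under PBS, overlapping. Pancreatic acinar markers summed to 5142 to 5260 CPM under PD fluid and 267 to 653 CPM under PBS. Fibroblast markers summed to 4572 to 4578 CPM under PD fluid and 2851 to 4117 CPM under PBS, without overlap. Of these sums Gsn alone made 2691 to 2693 CPM under PD fluid and 1801 to 2792 CPM under PBS. Per 1000 CPM of fibroblast markers, Fbln1 had 23.2 and 23.4 CPM in Mr1-/- PD fluid libraries and 10.3 and 11.7 CPM in Mr1-/- PBS libraries, so here the groups lay apart on that scale. Fbln2 had 33.4 and 34.6 CPM under PD fluid and 24.8 and 18.2 CPM under PBS. These were the 2 of the 10 genes that lay completely above on that scale. Another 5 lay completely below (Sparc, Ccn2, Tnc, Thbs1 and Thbs2), and 3 overlapped (Fn1, Postn and Ccn1). The order depended on the marker list. Set against adipocyte markers, 4 of the 10 lay completely above, 1 below and 5 overlapped. Per 1000 CPM of adipocyte markers, Sparc lay above, at 87.2 and 82.4 CPM under PD fluid and 70.35 and 68.6 CPM under PBS. The share over all genes was not computed. Mr1-/- PBS replicate 2, the lowest library for both fibulins, also had 6283 CPM of 10 mural and smooth muscle markers, against 1595 to 2744 CPM in the other 9 libraries. Without it the log2 fold changes were 1.33 for Fbln1 and 0.61 for Fbln2. The part of these cell types in the fibulin values was not tested. The Mr1-/- PBS libraries were the lowest of all 10 for both fibulins by the ratio to fibroblast markers. With the mean adipocyte marker level as a covariate, the log2 fold change of Fbln1 in Mr1-/- mice was 1.44 (edgeR adjusted p = 0.238).

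**Figure D3:**
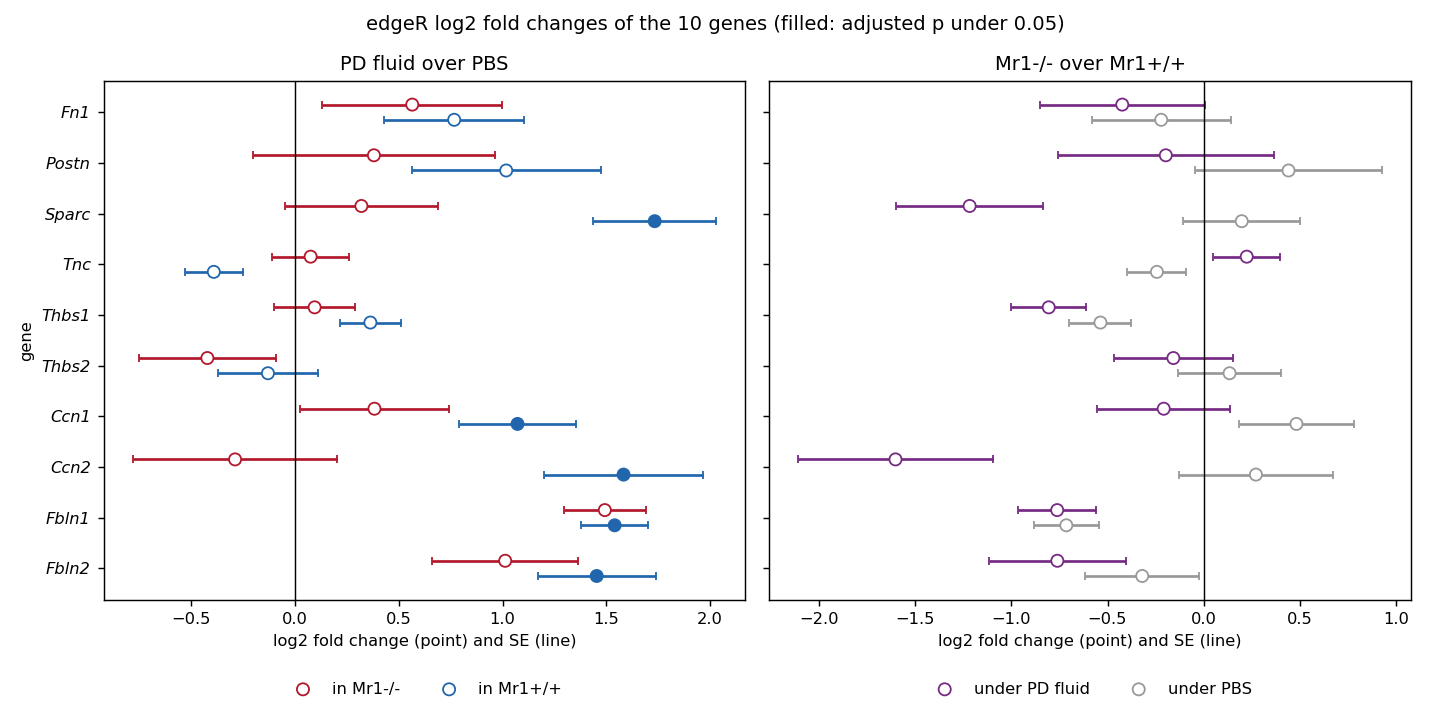
Log2 fold changes (horizontal axes) of the 10 genes with their SE, for PD fluid over PBS in each genotype (left) and Mr1-/- over Mr1+/+ under each injected liquid (right); filled points had an edgeR adjusted p under 0.05. The Fbln1 points for the genotypes nearly coincide (1.49 in Mr1-/- and 1.54 in Mr1+/+), and those of Ccn2 lie on opposite sides of 0 (-0.29 in Mr1-/- and 1.58 in Mr1+/+).

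Whether the response to PD fluid differed by genotype was tested by the interaction, the log2 fold change in Mr1-/- mice minus that in Mr1+/+ mice. None of the 10 genes was called, nor was any of all genes (0%); 2037 genes (13.2%) had an unadjusted p under 0.05, among them Sparc and Ccn2. DESeq2 called these same 2 genes and 3.07% of all genes, and edgeR on the 10 separate libraries called them and 10.1% of all genes (12.9% with the replicate number as a block). For Ccn2 the difference was -1.87 (SE 0.63, 95% interval -3.37 to -0.38, edgeR adjusted p = 0.318), and for Sparc -1.41 (SE 0.48, 95% interval -2.52 to -0.31, edgeR adjusted p = 0.312). For Fbln1 it was -0.05 (SE 0.26, 95% interval -0.64 to 0.54). Ccn1 (-0.69, SE 0.46), Postn (-0.64, SE 0.75), Fbln2 (-0.44, SE 0.46), Thbs2 (-0.29), Thbs1 (-0.27) and Fn1 (-0.20) were also negative. Tnc, at 0.47 (SE 0.23, edgeR adjusted p = 0.421), was the gene with a positive difference. The median was -0.37 for the 10 genes and 0.01 over all genes. The adipocyte covariate turned the differences of Sparc (0.29, SE 0.75), Postn (0.25, SE 1.56), Fbln1 (0.73, SE 0.51) and Fbln2 (1.25, SE 0.74) positive, with wide SEs.

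Under PD fluid, none of the 10 genes was called between genotypes by edgeR's test, where 0.0130% of all genes were called. An unadjusted p under 0.05 was reached by 4 of the 10 and by 19.1% of all genes, and DESeq2 called 4 of the 10 and 6.70% of all genes. Of the 10 genes, 9 had a negative log2 fold change, and the median was -0.59 against 0.00 over all genes. This comparison shares the Mr1+/+ PD fluid libraries with that of PD fluid in Mr1+/+ mice, so the values are not separate evidence. In 6 genes both Mr1-/- libraries lay below all 3 Mr1+/+ libraries and in 1 above, where 29.5% of all genes lay completely below and 31.0% completely above. Ccn2 had the largest difference, 18.3 and 16.6 CPM in Mr1-/- against 30.1, 57.6 and 71.3 CPM in Mr1+/+ libraries (-1.60, SE 0.50, edgeR adjusted p = 0.180). For Sparc the levels were 875 and 834 CPM in Mr1-/- and 1364, 2368 and 2226 CPM in Mr1+/+ libraries (-1.22, SE 0.38, edgeR adjusted p = 0.172). Both genes lay lower in the Mr1-/- libraries without overlap, and both were lowest among Mr1+/+ libraries in replicate 1. Thbs1 (-0.81, SE 0.19, edgeR adjusted p = 0.145), Fbln1 (-0.76, SE 0.20, edgeR adjusted p = 0.149) and Fbln2 (-0.76, SE 0.36, edgeR adjusted p = 0.291) followed. With the 10 libraries kept apart, edgeR called 5 of the 10 genes as lower in Mr1-/- mice, Sparc, Thbs1, Ccn2, Fbln1 and Fbln2, and 22.9% of all genes. The adipocyte sum in these libraries was 10030 to 10120 CPM in Mr1-/- and 17930 to 26930 CPM in Mr1+/+ mice, and its part in these differences was not tested.

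Under PBS, none of the 10 genes was called between genotypes by edgeR's test, and 0.0130% of all genes were called. An unadjusted p under 0.05 was reached by 2 of the 10, Fbln1 and Thbs1, and by 8.64% of all genes. DESeq2 called Fbln1 (-0.72, adjusted p = 0.0221) and 1.38% of all genes, and edgeR on the 10 separate libraries called none of the 10 (0.337% of all genes, or 0.0202% with the replicate block). Fbln1 had 42.5 and 33.2 CPM in Mr1-/- PBS libraries, against 57.6, 60.2 and 65.4 CPM in Mr1+/+ PBS libraries, and the groups did not overlap. The log2 fold change was -0.71 (SE 0.17, 95% interval -1.10 to -0.33, edgeR adjusted p = 0.566). Thbs1 had 97.1 and 94.2 CPM in Mr1-/- and 146, 154 and 127 CPM in Mr1+/+ libraries, also without overlap (-0.54, SE 0.16, edgeR adjusted p = 0.566). In all, 3 of the 10 genes lay completely lower and 1 completely higher in Mr1-/- libraries, where 15.3% and 18.3% of all genes did. Ccn1 was the gene that lay higher, at 26.9 and 34.6 CPM in Mr1-/- and 25.6, 23.1 and 19.6 CPM in Mr1+/+ libraries (0.48, SE 0.30, edgeR adjusted p = 0.622). The median log2 fold change was -0.04 for the 10 genes and -0.02 over all genes. The sum of 10 hepatocyte markers was 92.5 to 155 CPM in the Mr1-/- libraries of both treatments and 0.545 to 4.83 CPM in 5 of the 6 Mr1+/+ libraries, with 158 CPM in Mr1+/+ PBS replicate 3, of which 141.5 CPM was Apoa1 and 0.491 CPM Alb. The median log2 fold change of the 9 tested was 4.77 under PBS and 6.36 under PD fluid. Of these 9, only Alb was called, as higher in Mr1-/- mice under PBS (8.05) and under PD fluid (6.19), and the part of these transcripts in the genotype values was not tested.

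Thbs1 and Fbln1 were the genes for which the Mr1-/- libraries lay below the Mr1+/+ libraries under both PD fluid and PBS. For Thbs1 this held across all 10 libraries: its 4 Mr1-/- values ran from 94.2 to 105 CPM and its 6 Mr1+/+ values from 127 to 199 CPM. The count ratio of Thbs2 to Thbs1 was 0.444 and 0.401 in Mr1-/- PD fluid libraries, 0.563 and 0.647 in Mr1-/- PBS libraries, 0.220 to 0.361 in Mr1+/+ PD fluid libraries and 0.343 to 0.411 in Mr1+/+ PBS libraries. In each genotype the PBS libraries had the higher median of that ratio, with overlap between the Mr1+/+ groups.

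Levels were compared between genes as mean CPM per kb of annotated exon. Sparc led in every group, at 226 in Mr1-/- PD fluid, 181 in Mr1-/- PBS, 524 in Mr1+/+ PD fluid and 158 in Mr1+/+ PBS samples. Fn1 came next in every group, at 69.1, 46.7, 92.7 and 54.4 CPM per kb in the same order of groups. Below these the order depended on the group. In Mr1+/+ PBS samples Thbs1 (22.8), Tnc (21.3), Fbln2 (15.1), Fbln1 (14.2), Ccn1 (10.9), Thbs2 (7.50), Ccn2 (6.21) and Postn (5.93) followed, and the ranges of the neighbours Thbs1 and Tnc, Fbln2 and Fbln1, Thbs2 and Ccn2, and Ccn2 and Postn overlapped. In Mr1+/+ PD fluid samples the order was Fbln1 (41.4), Fbln2 (41.3), Thbs1 (29.4), Ccn1 (22.9), Ccn2 (18.5), Tnc (16.3), Postn (11.9) and Thbs2 (6.86), so both fibulins stood above Thbs1 and Tnc. The ranges of Fbln1 and Fbln2, Thbs1 and Ccn1, Ccn1 and Ccn2, and Ccn2 and Tnc overlapped. In the lone Mr1-/- PD fluid sample Fbln1 and Fbln2 (24.4 each) also stood above Thbs1 (16.8) and Tnc (19.0), while Ccn2 came last at 6.10. In Mr1-/- PBS samples the means of Tnc (18.0), Thbs1 (15.7) and Ccn1 (15.2) stood above those of Fbln2 (12.1) and Fbln1 (8.67). The range of Fbln2 there (8.16 to 16.0) overlapped those of Thbs1 (15.5 to 16.0), Ccn1 (13.3 to 17.1) and Fbln1 (7.61 to 9.73).

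**Figure D4:**
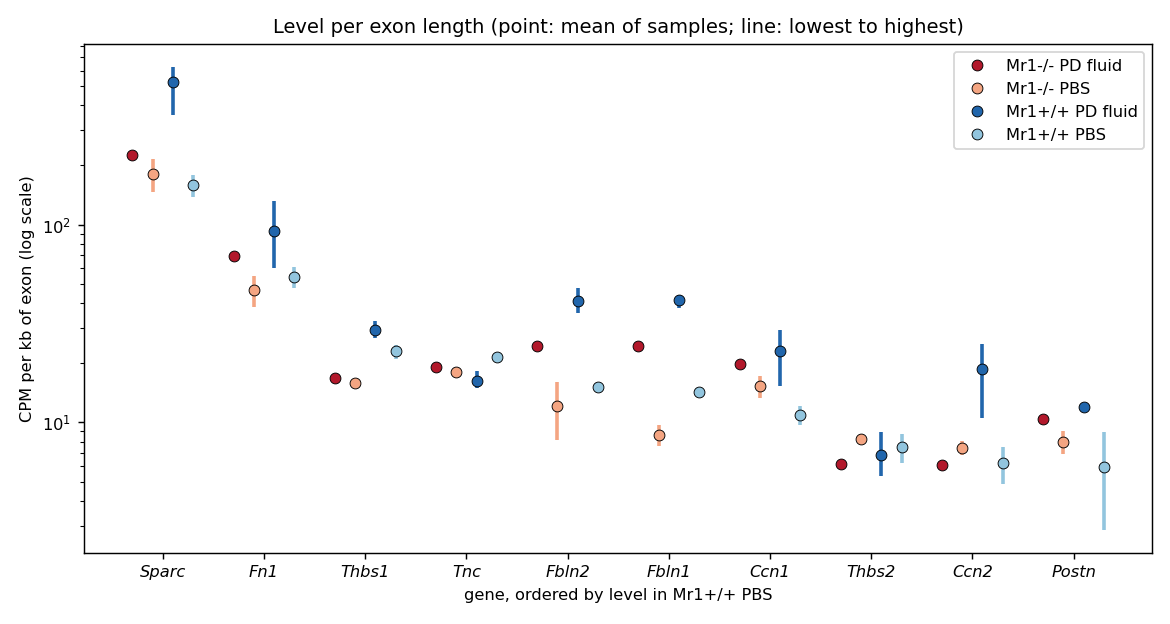
Mean CPM per kb of exon (vertical axis, log scale) of the 10 genes in the 4 groups, ordered by the level in Mr1+/+ PBS, with lines to the lowest and highest sample and no line for the single Mr1-/- PD fluid sample. Sparc (158 to 524 CPM per kb) and Fn1 (46.7 to 92.7 CPM per kb) are highest in every group, and the fibulins stand above Thbs1 and Tnc in the PD fluid groups of both genotypes.

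Over the 8 samples the 10 genes did not share a single pattern. Likeness was measured as the root mean square (RMS) difference of centred log2 (CPM + 1) values, where 0 is an identical pattern. The closest pair was Fbln1 and Fbln2 (0.23), then Tnc and Thbs2 (0.29), Sparc and Fbln2 (0.31), Sparc and Ccn2 (0.31), and Fn1 and Ccn1 (0.37). Among 11543 other genes with a mean of at least 5 CPM, those nearest to Fbln2 were Adamts2, a procollagen-processing protease (0.094), and Fbln5, another elastic-fibre fibulin (0.14). Nearest to Fbln1 were Cd163, a scavenger receptor of macrophages (0.15), and Serpinf1 (0.20), and nearest to Sparc were Lamb1, a laminin chain (0.11), and Aifm2 (0.12). Ccn2 had H2-Q10 (0.14) and Acaa1b (0.14), and Ccn1 had Eid2 (0.13) and Masp1, a complement protease (0.16). Fn1 had Stard8 (0.13) and complement C4b (0.16), and Postn had complement C6 (0.15) and the NADPH oxidase Nox4 (0.24). Thbs1 had Ppp1r37 and Smpd1 (0.13 each), Thbs2 had Serpina3g and Ttc27 (0.12 each), and Tnc had Wiz and Rnf44 (0.043 each). With 8 samples and this many genes, some close matches are found for most patterns, and these values are a description.

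Other genes of the same families and pathways were counted in lists drawn up by name. Of 24 other matricellular and fibulin-family genes, 23 were tested for PD fluid in Mr1+/+ mice, and 8 rose and 0 fell, where 8.49% of all genes rose and 6.37% fell. The list's log2 fold changes had a median of 0.93. Those that rose included Fbln5 (1.51, SE 0.25, edgeR adjusted p = 0.0135), the follistatin-like Fstl1 (1.50, SE 0.20, edgeR adjusted p = 0.0124), Smoc1 (1.44, SE 0.20), Thbs3 (1.43, SE 0.23), the Sparc relative Sparcl1 (1.20, SE 0.25) and Igfbp7 (0.99, SE 0.22). Of 17 integrins and other receptors for these proteins 4 rose and 1 fell, against the same shares. The integrin subunits Itgb5 (1.15, SE 0.15), Itga5, which forms the classical fibronectin receptor (0.86, SE 0.16), and its partner Itgb1 (0.69, SE 0.15) rose, as did the thrombospondin receptor Cd36 (1.67, SE 0.38), which adipocytes also express. The integrin subunit Itga4, common on leukocytes, fell by 1.33 (SE 0.27, edgeR adjusted p = 0.0236).

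Of 14 genes of the YAP and TEAD pathway, 7 rose and 1 fell under PD fluid in Mr1+/+ mice, where 14.9% of all genes were called, with a median of 0.71. The co-activators Wwtr1, which encodes TAZ (1.34, SE 0.15, edgeR adjusted p = 0.0124), and Yap1 (0.85, SE 0.17, edgeR adjusted p = 0.0195) rose, as did their partner Tead4 (1.49, SE 0.34) and the angiomotins Amotl2 (0.83, SE 0.16) and Amotl1 (1.03, SE 0.21). Nuak2, a kinase gene induced by YAP, fell by 1.05 (SE 0.13, edgeR adjusted p = 0.0124). Of 11 TGF-beta ligands and SMADs, 1 rose and 1 fell, close to the 8.49% and 6.37% of all genes, with a median of -0.21. Tgfb3 rose by 1.26 (SE 0.27, edgeR adjusted p = 0.0244), and the inhibitory Smad7, itself a target of TGF-beta, fell by 1.18 (SE 0.15, edgeR adjusted p = 0.0124). Without Mr1+/+ PBS replicate 3, 1 sample is left in that group, so counts of these lists are not given for that setting. In Mr1-/- mice no gene of the 4 lists was called by edgeR, although 5, 1, 1 and 0 had an unadjusted p under 0.05 (1.50% of all genes did), and their medians were 0.17, 0.22, 0.02 and 0.07 in the order given here. For the interaction these medians were -0.50, -0.02, -0.65 and 0.22, with no gene called and 3, 4, 6 and 1 at an unadjusted p under 0.05, as were 13.2% of all genes.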

How the data were processed

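RNA of mouse peritoneum was measured in 10 libraries. The authors deposited whole-number read counts by symbol without normalization, made on mm10 according to the submitters' processing notes. The labels' protocols describe poly-A selection and random-primed cDNA and name neither a strand step nor molecular identifiers, so copies from PCR may be included. Which aligner, counter and annotation were used is not given in the sources used here. Rows sharing a symbol were summed (21899 rows to 21877 symbols).

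Libraries with a chi-square per gene under 5 within a group, over genes with at least 10 summed counts, were summed, which left 8 samples. Genes were kept with filterByExpr of edgeR 4.0.16 (R 4.3.3) by group, scaled by TMM and tested with quasi-likelihood F tests (robust) on 4 group means, with 4 residual degrees of freedom. Benjamini-Hochberg adjustment ran over all 15385 genes, with a threshold of 0.05. Intervals are 95%, from the SE. Alternatives were DESeq2 1.42.0, all 10 libraries with and without the replicate number, RLE scaling, no filter, only the groups compared, adipocyte and skeletal muscle marker covariates, and leaving out libraries. Exon lengths and positions came from GENCODE M21 (mm10), and likeness used log2 (CPM + 1).

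The 10 genes, the gene lists and the treatment of the near-identical libraries were chosen with earlier results of these data known. The text names all 10 genes, Mr1, up to 6 called genes of each pathway list with the smallest p for PD fluid in Mr1+/+ mice, and the 2 genes nearest to each of the 10 in likeness. On simulated counts for PD fluid in Mr1+/+ mice the fit was tested for recovery of known changes, with every sign right. Right signs do not measure false calls or power, and they cover that comparison alone.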

Additional observations from a re-analysis of the deposited data

Results flagged for a closer look

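The log2 fold change of Ccn2 with PD fluid was -0.29 in Mr1-/- mice (SE 0.49, 95% interval -1.45 to 0.87, on 1 PD fluid sample, not called) and 1.58 in Mr1+/+ mice. Every Mr1-/- PD fluid library lay below every Mr1-/- PBS library, as in 20.1% of all genes. Every Mr1+/+ PD fluid library lay above every Mr1+/+ PBS library, as in 23.3% of all genes. The interaction tested this difference at -1.87 (SE 0.63, edgeR adjusted p = 0.318), so it did not pass the threshold, while DESeq2 and edgeR with 10 separate libraries called it.

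For Tnc neither value passed the test. Its log2 fold change with PD fluid was 0.075 (SE 0.19) in Mr1-/- mice and -0.39 (SE 0.14) in Mr1+/+ mice. In Mr1-/- mice the PD fluid libraries, which count as 1 sample, lay above the PBS libraries by a hair (145.6 CPM against 144.8 CPM at the nearest). Of all genes 21.4% lay completely above there. In Mr1+/+ mice all PD fluid libraries lay below all PBS libraries, as did 23.3% of all genes. Seen the other way, the log2 fold change of Mr1-/- over Mr1+/+ was 0.22 (SE 0.17) under PD fluid and -0.24 (SE 0.15) under PBS, each without overlap between libraries. Of all genes, 31.0% lay completely above under PD fluid and 15.3% completely below under PBS. The interaction was 0.47 (SE 0.23, edgeR adjusted p = 0.421) and did not pass.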

How the results depend on the processing

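The number of the 10 genes called for PD fluid in Mr1+/+ mice was 5, and it was 9 with 10 separate libraries (37.5%), 8 with DESeq2 (24.6%), 0 with the adipocyte covariate (0.344% of all genes), 1 with the skeletal muscle covariate (1.36% of all genes) and 0 to 5 when libraries were left out, among them 2 without Mr1+/+ PBS replicates 1 and 2 (9.93%). For PD fluid in Mr1-/- mice it was 0, and 1 (Fbln1) with 10 libraries (0.0135%), the muscle covariate (0.149%) or DESeq2 (0.0195%). For genotype under PBS it was 0, and 1 with DESeq2 (1.38%). For genotype under PD fluid it was 0, and 5 with 10 libraries (22.9%) and 4 with DESeq2 (6.70%). For the interaction it was 0, and 2 with 10 libraries (10.1%) or DESeq2 (3.07%). By design, 10 libraries treat near-identical pairs as separate samples, and leaving out libraries leaves fewer. The cause of these differences was not tested.

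No pairing by replicate number was seen. In 13 same-numbered pairs of libraries the correlation r of deviations from the group mean was -0.13 to 0.15, with 1 over 0.1. In groups of 2 libraries these deviations mirror each other, so the values are not independent and cannot exclude pairing. With the replicate number as a block on 10 libraries, 9 of the 10 genes were called for PD fluid in Mr1+/+ mice (37.4% of all genes), 0 in Mr1-/- mice (0%), 4 for genotype under PD fluid (16.4%) and 2 for the interaction (12.9%). The block also turned the genotype difference of Thbs2 under PBS to -0.085 and of Postn under PD fluid to 0.059.

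For PD fluid in Mr1+/+ mice the adipocyte covariate reversed the sign of Sparc (-0.091), Thbs2 (1.34) and Fbln2 (-0.31). For genotype it reversed Sparc (-0.22) under PBS, and Postn (0.55), Sparc (0.066), Tnc (-0.001568) and Fbln2 (0.46) under PD fluid. For the interaction it reversed Postn (0.25), Sparc (0.29), Fbln1 (0.73) and Fbln2 (1.25). The SEs of these values ran from 0.28 to 1.56. Each SE exceeded its value, except for Thbs2 in Mr1+/+ mice and Fbln1 and Fbln2 for the interaction, so most of these signs are not settled. The muscle covariate reversed Thbs2 (0.32, SE 0.24) for PD fluid in Mr1+/+ and Ccn2 (0.071, SE 0.46) in Mr1-/-. It also reversed Sparc (-0.19, SE 0.22) for genotype under PBS and Postn (0.15, SE 0.775) for genotype under PD fluid. For the interaction it reversed Fbln1 (0.39, SE 0.33) and Fbln2 (0.52, SE 0.48). Leaving out libraries gave values on both sides of 0 for Thbs2 (-0.37 to 0.16) with PD fluid in Mr1+/+. The same held for genotype under PBS in Fn1 (-0.51 to 0.018), Postn (-0.17 to 1.48), Sparc (-0.10 to 0.44), Thbs2 (-0.088 to 0.40), Ccn2 (-0.011 to 0.61) and Fbln2 (-0.89 to 0.086), for genotype under PD fluid in Thbs2 (-0.31 to 0.087) and Ccn1 (-0.43 to 0.012), and for the interaction in Fn1 (-0.44 to 0.13), Fbln1 (-0.21 to 0.14) and Fbln2 (-0.84 to 0.13). RLE scaling, no filter and the fit on only the groups compared reversed none. The single Mr1-/- PD fluid sample and the 4 residual degrees of freedom limit what can be called.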
